A study of Arabidopsis thaliana with 4 samples.

Results

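The tau and phi classes of glutathione S-transferases were followed in whole seedlings of Arabidopsis thaliana that differ in the CCCH-type zinc finger gene C3H17. The members were taken by locus, as the 28 tau genes GSTU1 to GSTU28 and the 13 phi genes GSTF2 to GSTF14. Of these 41 loci, 40 are among the 25382 loci to which a probe of the array could be matched. The rule names loci and uses no measured value. Wild type (WT), plants overexpressing the gene (AtC3H17 OX) and the mutant atc3h17-1 were all Col-0 seedlings, harvested untreated 14 days after germination from agar plates kept at 22 °C in short days (8 h light, 16 h dark). WT and atc3h17-1 were hybridised to 1 array each and AtC3H17 OX to 2. The labels do not give the promoter of the transgene, how many independent lines stand behind AtC3H17 OX, what lesion atc3h17-1 carries, or how many seedlings were pooled.

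Glutathione S-transferases join the tripeptide glutathione to reactive or foreign molecules, after which the conjugates are carried into the vacuole. The tau and phi classes are particular to plants and are the largest classes of the family. Many tau genes respond to herbicides, oxidised lipids and wounding, often through TGA-type bZIP factors, and several phi proteins bind plant metabolites or supply glutathione in their synthesis, among them anthocyanins, glucosinolates and the phytoalexin camalexin.

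Over 30341 probes, the median gap between the AtC3H17 OX arrays was 0.0322 (log2), against 0.170 to 0.272 for arrays of different genotypes. Where a gene had several probes, the difference between the pair on one probe was unrelated to that on another (r = 0.0056 over 5698 genes, against 0.54 to 0.66 for the other pairs of arrays; genes are not independent replicates). The pair was treated as a single sample. With 1 sample per genotype, no test between genotypes was possible. A member is called higher or lower below when it differed at least 2-fold in 1 direction on every array compared, and the share of all genes called by the same rule is the background. Repeated spots of 16 probes had a median SD of 0.168 (log2) on the WT array and of 0.0406 to 0.0502 on the others, so that every difference from WT carries the noise of the WT array. C3H17 itself (AT2G02160) was 4.57-fold and 5.60-fold higher than WT in AtC3H17 OX on 2 of its 3 probes. On the third, which had the strongest signal in WT, it was 1.02-fold lower. In atc3h17-1 it was at least 502-fold lower on this strongest probe and at least 42.7-fold lower on the probe with 4.57-fold. It was 1.41-fold higher there on the probe with 5.60-fold, which had the weakest signal in WT. All 16 root markers and all 8 leaf markers listed were well above background in WT, so that both organs of a seedling were represented.

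Of the 41 members, 40 had a matched probe and 38 were well above background in at least 1 genotype. No probe was matched to GSTU21 (AT1G78360). GSTU15 (AT1G59670) and GSTF5 (AT1G02940) had a probe that was not well above background in any genotype, although GSTU15 was above it on 1 AtC3H17 OX array. In all 3 genotypes, 37 members were well above background. The remaining gene, GSTU3 (AT2G29470), was above it in AtC3H17 OX and atc3h17-1 but not in WT, so it entered only through the genotypes in which it was high. A single probe represented 27 of the 38 members. Levels are given as log2 signal minus the 75th percentile of the array, a scale on which each probe can be compared between arrays but not with another probe.

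AtC3H17 OX was compared with WT to see how the family stood in the plants labelled as overexpressing C3H17. Of 38 members, 9 were at least 2-fold higher and 2 were at least 2-fold lower on both arrays. Across all 20181 genes compared, 4.33% were called higher and 2.76% lower, or 7.1% in either direction. GSTU11 was 51.7-fold and GSTU4 27.7-fold above WT. GSTU3 was at least 9.10-fold above it by the bound used here. It cannot be ranked against them, since its WT spot was not well above background. GSTU20 stood furthest below WT, at 2.80-fold. The median member differed from WT by only 0.028 on the log2 scale (all genes: -0.032), because 20 members lay above WT and 17 below it on both arrays.

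**Figure D1:**
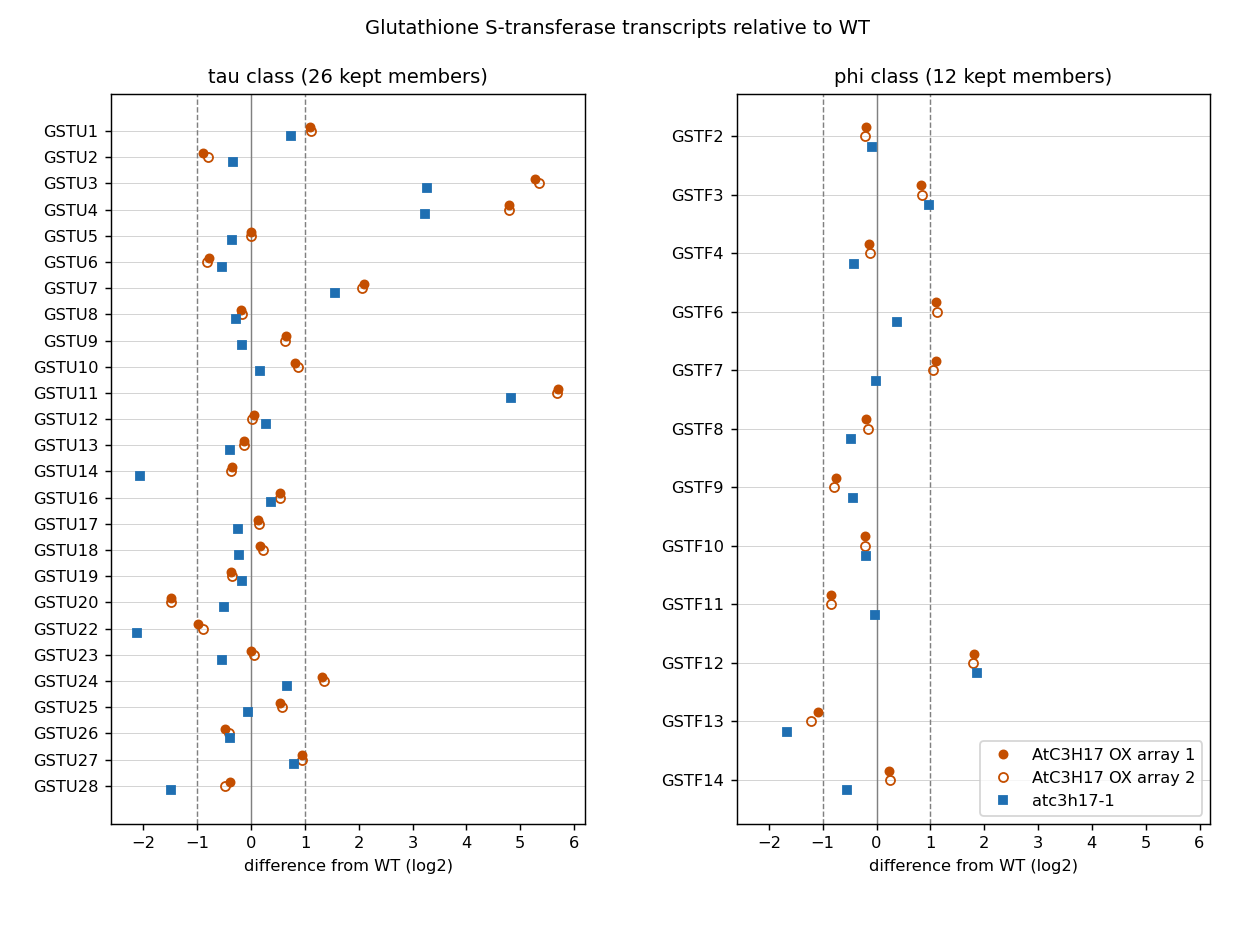
Difference from WT (log2) of each kept tau member (left, 26 genes) and phi member (right, 12 genes), on AtC3H17 OX array 1 (filled circles), array 2 (open circles) and the atc3h17-1 array (squares). Dashed lines mark 2-fold. GSTU11, GSTU3 and GSTU4 lie far to the right in both genotypes, while GSTU14, GSTU22 and GSTU28 lie beyond 2-fold to the left only in atc3h17-1.

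The tandem array of GSTU1 (AT2G29490) to GSTU7 (AT2G29420) on chromosome 2 held 4 of the 6 tau genes called higher. GSTU4 (AT2G29460) had a level of -4.63 in WT, 0.17 and 0.16 on the AtC3H17 OX arrays and -1.40 in atc3h17-1. The AtC3H17 OX mean lay 4.79 above WT, or 27.7-fold, and 4.31 above it with normexp background correction. GSTU3 had levels of -3.34 and -3.27 in AtC3H17 OX and -5.35 in atc3h17-1, against -8.62 in WT, where the spot was not well above background. With WT counted at the dimmest signal above background on its array, GSTU3 was at least 9.10-fold higher in AtC3H17 OX. That bound holds for the main processing only, since with normexp background correction the difference was 2.47 (log2), which is below it.

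GSTU7, a gene known to respond to salicylic acid, had a level of -0.80 in WT and of 1.29 and 1.27 in AtC3H17 OX, or 4.24-fold higher, and of 0.75 in atc3h17-1. GSTU1 had a level of -0.86 in WT against 0.23 and 0.26 in AtC3H17 OX, 2.15-fold higher, a call lost with normexp background correction (0.94). The other members of the array did not share this direction. GSTU2 (AT2G29480) and GSTU6 (AT2G29440) lay 0.85 and 0.80 below WT on the log2 scale, short of 2-fold, and GSTU5 (AT2G29450) differed from WT by -0.0013. Neighbours along the chromosome, spanning 12 genes of the reference table, thus included GSTU4 at 4.79 above WT and GSTU2 at 0.85 below it.

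On chromosome 1, GSTU11 (AT1G69930) had a level of -5.12 in WT, 0.58 and 0.57 in AtC3H17 OX and -0.30 in atc3h17-1, so that AtC3H17 OX lay 5.69 above WT, or 51.7-fold. The scanner software's own error of that difference was 0.21, but with normexp background correction the difference was 4.85. Its direct neighbour GSTU12 (AT1G69920) had -4.33 in WT and -4.28 and -4.31 in AtC3H17 OX, a difference of 0.032. GSTU24 (AT1G17170), whose enzyme can conjugate the explosive TNT, had levels of -0.95 in WT and of 0.37 and 0.40 in AtC3H17 OX, 2.52-fold higher. Next to it GSTU25 (AT1G17180) lay 0.56 above WT and GSTU26 (AT1G17190) lay 0.45 below it.

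**Figure D2:**
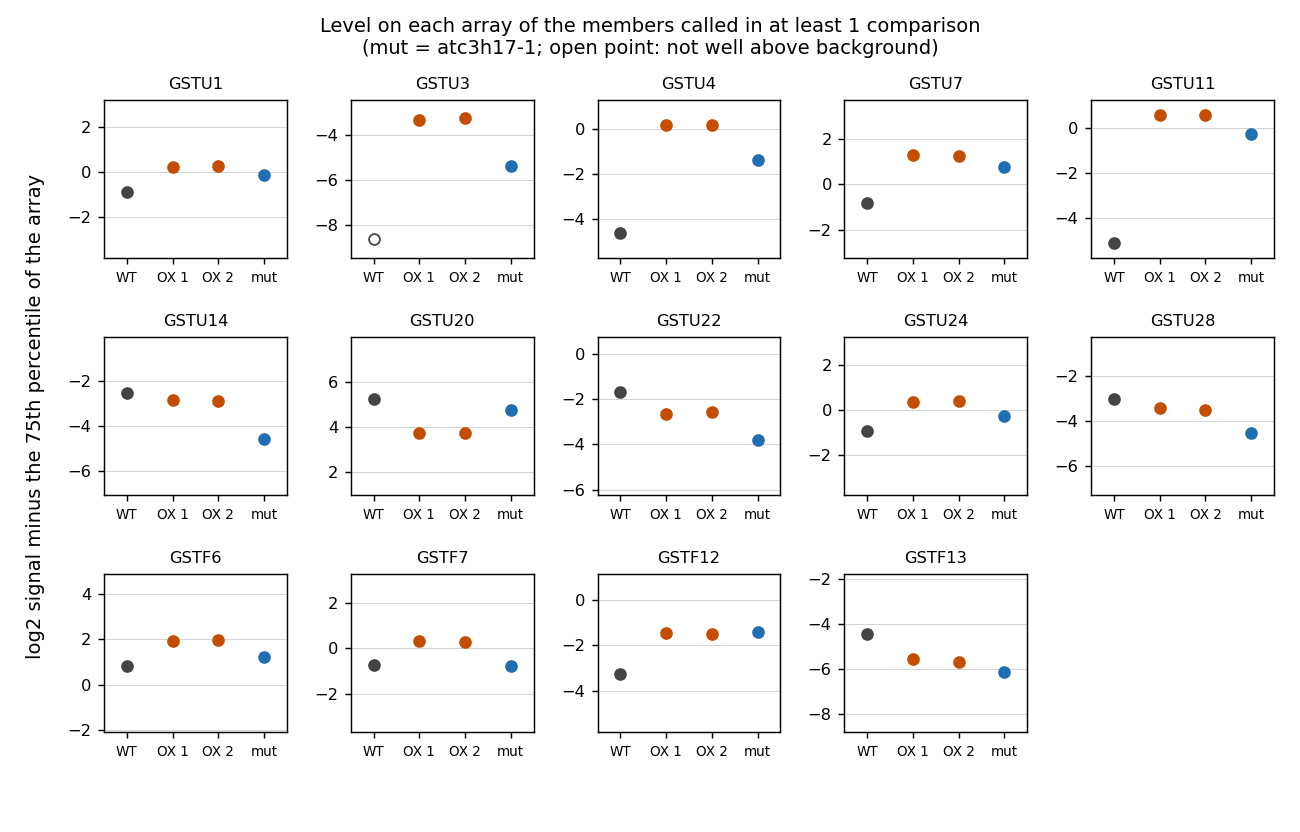
Level (log2 signal minus the 75th percentile of the array) on the WT, AtC3H17 OX 1, AtC3H17 OX 2 and atc3h17-1 arrays for the 14 members called in at least 1 comparison; each panel spans the same log2 range and an open point was not well above background. The AtC3H17 OX points coincide nearly, with a largest gap of 0.144 among all kept members, and GSTU3, GSTU4 and GSTU11 lie several units above WT in the other genotypes.

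GSTU20 (AT1G78370) was the tau gene called lower. Its protein is known as a partner of the jasmonate-conjugating enzyme FIN219 and has been linked to aliphatic glucosinolate synthesis. Its level was 5.25 in WT, 3.75 and 3.77 in AtC3H17 OX and 4.75 in atc3h17-1, so that AtC3H17 OX lay 1.49 below WT on the log2 scale, or 2.80-fold. GSTU22 (AT1G78340) in the same tandem array, with a level of -1.69 in WT and of -2.66 and -2.58 in AtC3H17 OX, lay just outside 2-fold. GSTU19 (AT1G78380), an abundant detoxifying tau enzyme of the same array, lay 0.37 below WT over 3 probes, and GSTU23 (AT1G78320) differed from WT by 0.024. GSTU17 (AT1G10370), a gene first described as responsive to early dehydration (ERD9), had levels of 0.17 in WT, 0.30 and 0.31 in AtC3H17 OX and -0.08 in atc3h17-1. Its annotated end overlaps that of GSTU18 (AT1G10360), which lay 0.19 above WT in AtC3H17 OX.

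Among the phi genes, GSTF12 (AT5G17220) stood highest. It encodes TT19, which carries anthocyanins and proanthocyanidin precursors towards the vacuole. Its level was -3.27 in WT, -1.47 and -1.48 in AtC3H17 OX and -1.41 in atc3h17-1, so that AtC3H17 OX lay 3.47-fold above WT. Both of its probes were beyond 2-fold in AtC3H17 OX, by 2.12 and 1.47 on the log2 scale.

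GSTF6 (AT1G02930), which supplies glutathione in camalexin synthesis, had a level of 0.83 in WT, 1.94 and 1.96 in AtC3H17 OX and 1.204 in atc3h17-1. AtC3H17 OX was 2.17-fold higher than WT, but only 1 of the 2 probes passed 2-fold (1.31 and 0.93), and with the brighter probe alone the gene was not called. Its neighbour GSTF7 (AT1G02920) had levels of -0.75 in WT, 0.35 and 0.30 in AtC3H17 OX and -0.76 in atc3h17-1, 2.11-fold higher in AtC3H17 OX with a difference of -0.0065 between atc3h17-1 and WT. GSTF4 (AT1G02950), from the same array of neighbours, lay 0.13 below WT in AtC3H17 OX. GSTF6 and GSTF7 are close copies, and how far a probe of either gene also binds the other was not tested.

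With the main processing, the phi genes linked to glucosinolate synthesis lay on the other side of WT. GSTF11 (AT3G03190), tied to the aliphatic branch, had levels of 0.25 in WT, -0.60 and -0.60 in AtC3H17 OX and 0.23 in atc3h17-1, 0.85 below WT in AtC3H17 OX and thus short of 2-fold. GSTF9 (AT2G30860) had levels of 4.92 in WT, 4.16 and 4.14 in AtC3H17 OX and 4.49 in atc3h17-1, and its 3 probes in AtC3H17 OX lay 0.67, 1.17 and 0.47 below WT. GSTF10 (AT2G30870) had levels of 4.35 in WT, 4.14 and 4.15 in AtC3H17 OX and 4.16 in atc3h17-1, and lay 0.21 below WT in AtC3H17 OX. GSTF9 and GSTF10 stayed below WT in AtC3H17 OX with normexp background correction (-0.53 and -0.43).

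GSTF13 (AT3G62760) was the phi gene called lower, with levels of -4.47 in WT, -5.55 and -5.69 in AtC3H17 OX and -6.13 in atc3h17-1. The atc3h17-1 value lies close to the dimmest signals counted as above background (-6.65 to -6.43), and the WT value lies furthest from them. With normexp background correction GSTF13 was not called in either genotype (-0.55 in AtC3H17 OX and -0.66 in atc3h17-1). GSTF2 (AT4G02520), a membrane-associated protein that binds flavonols and camalexin, had levels of 2.84 in WT, 2.64 and 2.64 in AtC3H17 OX and 2.77 in atc3h17-1. GSTF8 (AT2G47730), a long-used marker of early stress and salicylate responses, had 1.53 in WT, 1.34 and 1.37 in AtC3H17 OX and 1.05 in atc3h17-1. Both of these well-known stress genes stayed within 2-fold of WT in either genotype.

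How the family stood in the mutant was read from the atc3h17-1 array against the WT array. Of 38 members, 5 were at least 2-fold higher and 4 at least 2-fold lower, where 4.27% of all 20314 genes compared were higher and 4.2% lower (8.47% in either direction). The comparison shares its WT array with the one above. The members called higher were GSTU11 (28.2-fold), GSTU4 (9.33-fold), GSTF12 (3.63-fold), GSTU7 (2.94-fold) and GSTU3, which was at least 2.19-fold higher. Of the 4 arrays, WT had the lowest level of GSTU11, GSTU4, GSTU3, GSTU7 and GSTF12. GSTU1, GSTU24 and GSTF6, called in AtC3H17 OX, lay 0.74, 0.66 and 0.38 above WT here, short of 2-fold.

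GSTU22 and GSTU14 (AT1G27140) were furthest below WT in atc3h17-1. GSTU22 had a level of -3.80, against -1.69 in WT, 4.32-fold lower. GSTU14 had -4.59 in atc3h17-1 and -2.51 in WT, with -2.86 and -2.89 in AtC3H17 OX, so that atc3h17-1 was 4.21-fold lower than WT and stood below every other array. GSTU28 (AT1G53680) had levels of -3.04 in WT, -3.43 and -3.52 in AtC3H17 OX and -4.52 in atc3h17-1, 2.80-fold lower in atc3h17-1. GSTF13 was 3.16-fold lower. Beside GSTU14 lies GSTU13 (AT1G27130), an enzyme of the indole glucosinolate branch of pathogen defence, which was 0.39 below WT in atc3h17-1 over 3 probes.

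Most of the listed markers of root tissue were lower as well. Of the 16 root markers, 13 were at least 2-fold lower in atc3h17-1 than in WT (median -1.98), against 4.2% of all genes. The others, SCR, SHR and NRT2.1, stayed near WT, at 0.061, -0.13 and -0.14. The summed level of the 16, as linear signal over the array's 75th percentile, was 5.55 in WT, 3.61 to 3.70 in AtC3H17 OX and 1.94 in atc3h17-1. CASP4 and CASP5, genes of the Casparian strip, were not well above background in atc3h17-1. With both at their lower bounds the root marker median in atc3h17-1 was -1.87, and with normexp background correction it was -1.40. In AtC3H17 OX, 2 of the 16 were lower, with a median of -0.52, against 2.76% of all genes. The summed level of the 8 leaf markers was 549 in WT, 612 to 617 in AtC3H17 OX and 583 in atc3h17-1. In whole seedlings, fewer cells of a type and less RNA per cell cannot be told apart, and the part of root tissue in the lower GSTU14, GSTU22, GSTU28 and GSTF13 values was not tested.

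AtC3H17 OX and atc3h17-1 were then compared with each other, which leaves out the WT array. On both AtC3H17 OX arrays, 6 of 38 members were at least 2-fold higher than in atc3h17-1 and 0 were lower, against 2.71% higher and 1.65% lower among all 20217 genes (4.36% in either direction). GSTU3 was 4.15-fold, GSTU14 3.27-fold, GSTU4 2.97-fold, GSTU22 2.25-fold, GSTF7 2.12-fold and GSTU28 2.07-fold higher in AtC3H17 OX. The difference of GSTU28 from atc3h17-1 was 1.097 on the first array and 1.002 on the second, at the edge of the rule, and with normexp background correction GSTU28 (0.70) and GSTU22 (0.88) were not called. GSTU20 lay on the other edge, at -0.996 and -0.982.

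The values of these genes against WT were unlike. GSTU3 and GSTU4 were above WT in both genotypes and further above it in AtC3H17 OX. GSTU14, GSTU22 and GSTU28 were below WT in both genotypes and further below it in atc3h17-1. Of the 16 root markers, 10 were called higher and 0 lower in AtC3H17 OX than in atc3h17-1, against 2.71% and 1.65% of all genes. The part of root tissue in these values was not tested. GSTF7 was above WT in AtC3H17 OX and level with WT in atc3h17-1. GSTU11, by contrast, differed by 0.88 between the genotypes, 1.83-fold, and GSTF12 by -0.065, although both stood well above WT in either genotype.

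**Figure D3:**
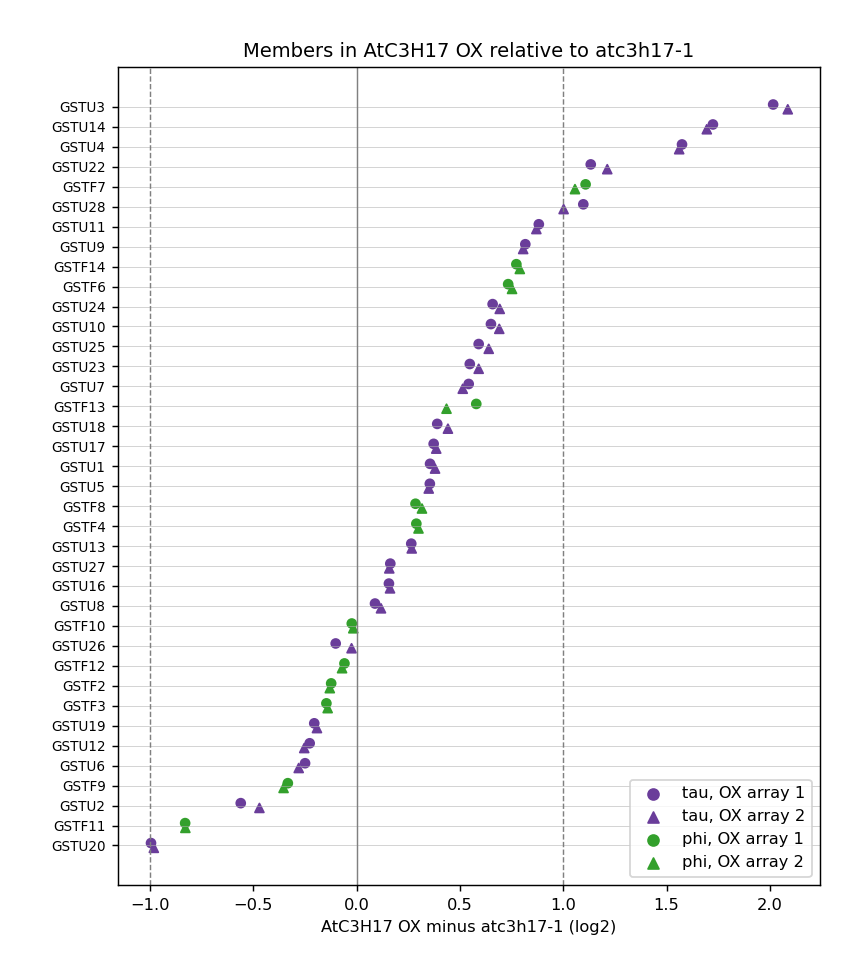
Difference between AtC3H17 OX and atc3h17-1 (log2) for the 38 kept members, sorted by the mean, with AtC3H17 OX array 1 as circles and array 2 as triangles, tau in purple and phi in green; dashed lines mark 2-fold. GSTU3, GSTU14, GSTU4, GSTU22, GSTF7 and GSTU28 lie at or beyond 2-fold on the right, and GSTU20 and GSTF11 lie furthest to the left.

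The classes were set side by side as a description, since genes are not replicates. In AtC3H17 OX against WT, 6 of 26 tau members (23.1%) and 3 of 12 phi members (25.0%) were called higher. Of all genes, 4.33% were higher. In each class 1 member was called lower, against 2.76% of all genes. The medians were 0.082 for tau and -0.15 for phi, and the tau values ran from -1.49 to 5.69 while the phi values ran from -1.15 to 1.80. In atc3h17-1 against WT, 4 tau members (15.4%) and 1 phi member (8.33%) were higher, against 4.27% of all genes. Lower were 3 tau members (11.5%) and 1 phi member (8.33%), against 4.2% of all genes. The medians in atc3h17-1 were -0.20 for tau and -0.13 for phi. Of the tau members, 20 of 26 lay higher in AtC3H17 OX than in atc3h17-1 on both arrays (median 0.40), as did 6 of 12 phi members (median 0.14), against 45.2% of all genes (median -0.0083). GSTU11, GSTU3 and GSTU4, each at least 9.10-fold above WT in AtC3H17 OX (GSTU3 by its bound), were all tau genes. The highest phi gene, GSTF12, was 3.47-fold above WT.

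**Figure D4:**
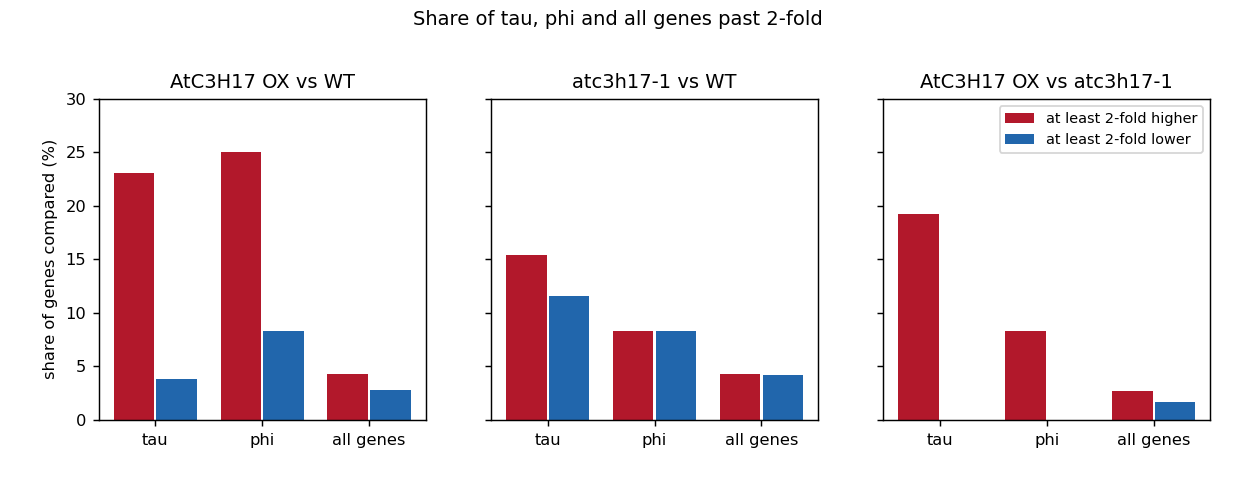
Share (%) of the tau members (26), the phi members (12) and all genes compared that were at least 2-fold higher (red) or lower (blue) in each of the 3 comparisons. The red bars of tau and phi reach 23.1% and 25.0% in AtC3H17 OX against WT, where all genes reach 4.33%.

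Across all 3 comparisons 14 members were called at least once and 24 were never called. In AtC3H17 OX the uncalled member nearest the threshold was GSTU27 (AT3G43800), with levels of 1.52 in WT, 2.47 and 2.47 in AtC3H17 OX and 2.31 in atc3h17-1, or 0.95 above WT. GSTF3 (AT2G02930) came nearest in atc3h17-1, with -0.18 in WT, 0.65 and 0.65 in AtC3H17 OX and 0.79 in atc3h17-1, a difference of 0.98. Just inside the threshold stood GSTF7 and GSTF13 in AtC3H17 OX, by 1.05 and 1.08 on the array nearer to WT. GSTU10 (AT1G74590) and GSTU9 (AT5G62480) lay 0.84 and 0.64 above WT in AtC3H17 OX, but 0.17 above and 0.17 below it in atc3h17-1. GSTU16 (AT1G59700) lay 0.53 above WT in AtC3H17 OX and 0.38 above it in atc3h17-1 over 2 probes, GSTF14 (AT1G49860) lay 0.24 above and 0.54 below, and GSTU8 (AT3G09270) lay 0.18 below and 0.28 below. GSTU5 had levels of 2.29, 2.29, 2.29 and 1.94 on the WT, AtC3H17 OX and atc3h17-1 arrays. Within 0.175 of WT lay 7 of 38 members in AtC3H17 OX and 7 in atc3h17-1, against 6797 of 20181 and 8240 of 20314 genes. This limit is the noise of a difference between repeated spots of the WT and atc3h17-1 arrays, and was used for both genotypes.

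Genes that act beside the family were read from lists drawn up by pathway. Among all genes, 4.33% were higher and 2.76% lower than WT in AtC3H17 OX, and 4.27% and 4.2% in atc3h17-1. Among 12 kept members of other glutathione S-transferase classes, 1 was called higher and 0 lower in either genotype against WT (medians 0.24 and 0.23). This was the lambda-class gene GSTL1, which had a level of -4.76 in WT, -0.59 and -0.66 in AtC3H17 OX and -1.97 in atc3h17-1. It lay 4.14 above WT in AtC3H17 OX and 2.79 above it in atc3h17-1. Of 12 genes of glutathione synthesis, reduction and breakdown, 1 was called higher in each genotype, or 2 with normexp background correction. In both lists, 1 of 12 (8.33%) is near the share of all genes. GGCT2;1, which breaks glutathione down in the cytosol, lay 2.32 above WT in AtC3H17 OX and 1.92 above it in atc3h17-1. GSH1, which catalyses the limiting step of glutathione synthesis, lay 0.37 and 0.39 below WT. The 5 ABCC transporters, which include carriers of glutathione conjugates into the vacuole, held no call, and their medians were 0.53 and 0.29.

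Genes known to respond to foreign chemicals and oxidised lipids were mostly higher. Of 16 such genes, 11 were at least 2-fold higher and 0 lower in AtC3H17 OX than in WT, with a median of 1.51, and 8 of the 15 compared were higher in atc3h17-1, with a median of 1.03. The shares of all genes were 4.33% higher and 2.76% lower in AtC3H17 OX, and 4.27% higher in atc3h17-1. With normexp background correction the list median in AtC3H17 OX was 1.17, and 5 genes of the list were called higher in atc3h17-1. Between the genotypes, 2 of the 16 were higher in AtC3H17 OX than in atc3h17-1 (1 with normexp), against 2.71% of all genes. The transporter gene ABCG40 lay 4.28 above WT in AtC3H17 OX and 2.13 above it in atc3h17-1. AT2G04070 was at least 2.32-fold higher in AtC3H17 OX and was not well above background in the other genotypes. The glucosyltransferase gene UGT74E2 lay 2.24 and 1.41 above WT, and the cytochrome P450 gene CYP81D8 lay 2.09 and 1.46 above it. The 7 genes for TGA factors and their partner SCL14, which bind or act at promoters of tau genes, held no call, with medians of 0.11 and 0.038 and with SCL14 at 0.63 and 0.28.

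Lists were also read for the pathways in which single phi and tau members act. As background, 4.33% of all genes were higher and 2.76% lower than WT in AtC3H17 OX. In atc3h17-1 these shares were 4.27% and 4.2%. Of 10 genes of anthocyanin synthesis and its regulators, the pathway of GSTF12, 7 were higher and 0 lower in each genotype (medians 2.38 and 2.52), and none differed 2-fold between atc3h17-1 and both AtC3H17 OX arrays. Of the 7, LDOX, UF3GT and 5MAT were not well above background in WT, so that they passed only through the genotypes where they were high. With these 3 genes at their lower bounds the medians were 1.42 and 2.104, and with normexp background correction they were 0.96 and 1.25. When a signal above background was required on all arrays, 4 genes were called in each genotype. The MYB gene PAP1 lay 4.30 and 3.97 above WT and DFR 2.84 and 3.26 above it. Of 14 genes of aliphatic glucosinolate synthesis, the pathway of GSTF11 and GSTU20, 9 were lower in AtC3H17 OX and 1 in atc3h17-1 (medians -1.20 and -0.64). The 1 gene in atc3h17-1 was 7.1% of the list, near the share of all genes. GSTF11 itself differed from WT by -0.020 in atc3h17-1. CYP79F2 lay at -1.48 and -1.10, both calls being lost with normexp, and SOT18 at -1.43 and -0.79. Among 5 camalexin genes, the pathway of GSTF6, 3 were higher and 1 lower in AtC3H17 OX, and 1 of the 4 compared was higher in atc3h17-1 (median -0.035). CYP71A13, 1 of the 3, was well above background only in AtC3H17 OX and so passed through that genotype alone. PAD3 lay 2.99 above WT, against 1.21 in atc3h17-1. Between the genotypes, 3 of the 5 were higher in AtC3H17 OX, against 2.71% of all genes. The early genes CYP79B3 and CYP79B2 lay at -1.04, called lower, and -0.91 in AtC3H17 OX.

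**Figure D5:**
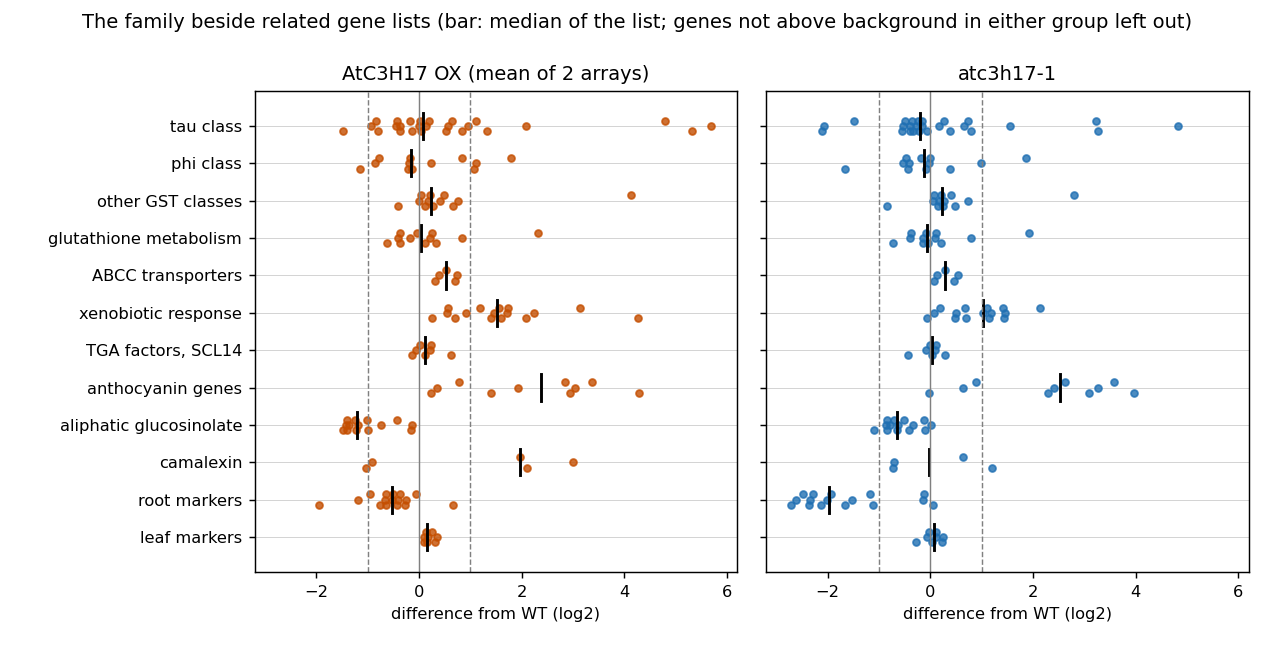
Difference from WT (log2) of the tau and phi members and of the genes of 10 related lists, for AtC3H17 OX (left, mean of 2 arrays) and atc3h17-1 (right); each point is a gene, the black bar is the median and dashed lines mark 2-fold. The xenobiotic response and anthocyanin lists lie to the right in both genotypes and the tau and phi medians lie near 0. The median of the root markers lies at -1.98 in atc3h17-1.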

How the data were processed

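Cy3-labelled RNA of 4 whole-seedling samples was measured on 4 one-colour Agilent arrays, on 1 slide and in 1 scan per the file headers, so no batch could be tested. Per the file headers, the deposited intensity values (processed signals) are background-subtracted and detrended within each array by Agilent Feature Extraction 11.0.1.1, which also set the deposited per-spot marks of outliers, saturation and signal well above background. No spot was saturated, and 72.0% to 74.5% of 43803 spots per array were well above background.

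The log2 of the processed signal minus the array's 75th percentile was used (75th percentiles 3273 to 3487). Control and outlier spots were left out. A probe was kept if well above background on every array of a genotype (32975 probes), and a gene's value was the mean over its kept probes (20463 genes). Of 43603 probes, 78.8% matched 1 locus through RefSeq accessions of the TAIR10.1 table. The file headers name TAIR10 as annotation, so no coordinates are given. A fold against a genotype not well above background is a bound, the brighter mean over the dim genotype's mean. There each dim array counts at its own value or at the dimmest signal above background on it, whichever is higher. The bound holds for this processing only. With normexp, GSTU3, UF3GT and LDOX, among others, lay 2.47, 1.20 and 0.85 (log2) above WT in AtC3H17 OX, below their bounds. A gene was compared if well above background in at least 1 of the 2 genotypes and called at 2-fold on every array. Among the alternatives was limma 3.58.1 in R 4.3.3; Python 3.11.15 with numpy 2.4.6 and pandas 2.3.3 did the rest. The number of arrays limits the precision.

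The members, gene lists and 2-fold rule were chosen with earlier results of these data known. The members whose array values are given are those called in any comparison and 11 with known roles. Those next to the threshold and up to 4 called genes per list and direction complete the rule, and further members and list genes were added after their values were seen. A planned search of promoters for a motif was not made. Sequences were not used here.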

Additional observations from a re-analysis of the deposited data

How the results depend on the processing

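The counts, class and list medians and the difference of every kept member and named list gene were recomputed with normexp background correction, quantile normalization, the array median as reference, no filter on dim probes, probes above background on all 4 arrays, the brightest probe, a position trend removed, the authors' series value table, limma and, where AtC3H17 OX was compared, each of its arrays alone. No called difference changed sign under these alternatives. With normexp, the members called lower in AtC3H17 OX fell from 2 to 1 (phi from 1 to 0), those called higher in atc3h17-1 went from 5 to 8 (phi from 1 to 3) with phi lower at 0, and between AtC3H17 OX and atc3h17-1 the tau members called higher went from 5 to 3 and 1 member, the tau gene GSTU20, was called lower. GSTU20 was also that 1 call with the array median as reference. With the position trend removed, 1 member and 0 phi members were called lower in AtC3H17 OX. GSTF13 lost its call in AtC3H17 OX with normexp (-0.55) and without the position trend (-1.002), and in atc3h17-1 with normexp (-0.66). GSTF6 lost its call with the brightest probe (0.93) and, on 1 array, without the trend (1.01), GSTU1 with normexp (0.94), GSTU22 with normexp against atc3h17-1 (0.88), and GSTU28 against atc3h17-1 with normexp, quantile normalization and the array median (0.70, 0.93 and 1.02). GSTU10 and GSTU27 in AtC3H17 OX (1.31 and 1.17) and GSTU27, GSTF3 and GSTF6 in atc3h17-1 (1.02, 1.06 and 1.03) gained a call with normexp. The cause was not tested. Of the anthocyanin genes, 4 in place of 7 were higher in AtC3H17 OX with normexp. Among all genes, normexp gave 286 lower in AtC3H17 OX and 424 in atc3h17-1, and 178 higher and 136 lower between them. Probes above background on all 4 arrays gave 349 lower in AtC3H17 OX, 429 higher and 470 lower in atc3h17-1, and 319 higher and 90 lower between them, where fewer genes were compared. Leaving out either AtC3H17 OX array left 9 members higher and 2 lower than WT. The pair, counted as 1 sample, differed so little that this check could change few calls. limma on the 4 arrays as samples called 11 members in AtC3H17 OX against WT, 9 in atc3h17-1 against WT and 6 between AtC3H17 OX and atc3h17-1 (adjusted p under 0.05 and 2-fold), but it takes its spread from an array pair counted here as 1 sample and passed 66.4%, 52.9% and 46.9% of all genes on adjusted p alone. The phi median against atc3h17-1 ran from -0.020 without a filter to 0.22 with the brightest probe. No paired analysis was possible because WT and atc3h17-1 had 1 array each. Members with 1 probe near background, such as GSTU3 in WT and GSTF13 in atc3h17-1, are limited by signal over background.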
